A study of Mus musculus with 16 samples.

Results

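The 10 genes of the basement membrane followed here were listed by name, from the 24421 gene rows of each count table, and their levels were compared through the striatum of control and BACHD mice given a control virus or a virus carrying Foxp2. They are the collagen IV chain genes Col4a1, Col4a2, Col4a3, Col4a4, Col4a5 and Col4a6, the nidogen genes Nid1 and Nid2, the perlecan gene Hspg2 and the laminin gamma 1 gene Lamc1. The set was chosen from results of the same libraries, because Col4a1 and Col4a2 were low under the Foxp2 virus, so the differences between the viruses are given for the members as descriptions and no test is read from them. All 10 had enough reads to enter the fit of 13563 genes.

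The basement membrane is a thin sheet of extracellular matrix that, in the brain, wraps endothelial cells, pericytes and smooth muscle cells and underlies the endfeet of astrocytes, the meninges and the choroid plexus. Laminins form one network and collagen IV another, and nidogens and the heparan sulfate proteoglycan perlecan tie the networks together. Collagen IV is secreted as a triple helix of chains, and the one made of alpha 1 and alpha 2 chains (Col4a1 and Col4a2) is the general form of blood vessels, while the chains from Col4a3, Col4a4, Col4a5 and Col4a6 are restricted to fewer tissues.

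RNA sequencing was done on striatum from 16 mice aged 13 months, with 4 mice in each of 4 groups that differ in genotype and injected virus. Mice of control genotype are called Con+Con with the control virus and Con+Foxp2 with the Foxp2 virus. Mice of BACHD genotype are called BACHD+Con and BACHD+Foxp2 in the same way. BACHD mice carry a mutant human huntingtin gene on a bacterial artificial chromosome and serve as a model of Huntington disease, and Foxp2 encodes a forkhead transcription factor. All 16 mice had received a virus, so every group shares that treatment and no uninjected striatum was analysed here. What kind of virus it was, its promoter and the cells it reached were not given in the labels, which also do not say whether animals were pooled.

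The libraries held 2660395 to 3669748 reads assigned to genes, and values are CPM, the reads of a gene scaled by library size with the TMM factors of edgeR, as mean ± SD over 4 mice. Foxp2 itself was at 118 ± 26.7 CPM under the control virus and 4015 ± 431 CPM under the Foxp2 virus in control mice, and at 119 ± 28.6 and 1595 ± 288 CPM in BACHD mice, so the virus groups of the 2 genotypes differ in Foxp2 level. Reads on Htt were at 264 to 323 CPM in Con+Con and 470 to 767 CPM in BACHD+Con. The tissue label was checked against markers of striatal projection neurons, with Pde10a at 1433 ± 523, Rgs9 at 931 ± 381 and Penk at 828 ± 345 CPM in Con+Con, and no gene of that list was at 0 in any group. Libraries also differed in a way that crosses the groups. Ttr, the transthyretin gene made in bulk by choroid plexus epithelium, was at 2588 to 10114 CPM in 7 libraries and at 89.7 to 376 CPM in the other 9. Among control mice 3 Con+Con and 2 Con+Foxp2 libraries were in the set of 7, and among BACHD mice 1 library of each virus, and values that move with this split are given for both sets of libraries. The labels do not say that replicates were handled separately beyond being different samples, so the spread may be in part technical.

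Col4a1 and Col4a2 share one start region. In GRCm38 (mm10) coordinates Col4a1 lies on the minus strand of chromosome 8 from 11198423 to 11312826, and Col4a2 on the plus strand from 11312805 to 11449287. Their annotated 5′ ends overlap by 22 bases, so transcription runs outward in opposite directions from the same place. The sequence around this overlap is shown because both genes start in it. The windows of 300 bases around the starts in RefSeq's table (250 bases before and 50 after, assembly GRCm38.p6) were found for 7 of the 10 genes. Below, capitals in the first line mark the bases that lie in both genes, and capitals in the other lines mark a CCAAT box.
Shared 5′ ends, chr8:11312801-11312830, plus strand: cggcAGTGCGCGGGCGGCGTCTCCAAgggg
CCAAT on the Col4a2 side, chr8:11312761-11312790, plus strand: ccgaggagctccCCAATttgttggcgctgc
CCAAT on the Col4a1 side, chr8:11312955-11312984, plus strand: ccccttggctcgCCAATcccgggcaagcac

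Some short motifs were searched on both strands of these windows and of all 32851 windows of this length. The windows of both Col4a1 and Col4a2 held CCAAT, found in 37.4% of all windows. They also held the GC box GGGCGG (35.7% of all windows) and the CT-rich motif CCCTCCCC (10.8%). One copy of GGGCGG, from 11312812 to 11312817, lies inside the shared 5′ ends. A copy of CCCTCCCC, from 11312792 to 11312799, lies just beside them, so these copies are counted in both windows. Of strings read by forkhead factors, TATTTA was in 13.7% of all windows, the related TATTTG in 12%, the core TGTTTAC in 3.65% and the variant ATAAACA in 4.60%. None of these 4 was in the windows of Col4a1, Col4a2, Col4a4, Col4a6, Nid1 or Hspg2, and the window of Col4a5 held TATTTG. A match is a description of these letters only. The other chain genes are arranged in the same head-to-head fashion. The annotated starts of Col4a3 (plus strand, 82586921 to 82722059) and Col4a4 (minus strand, 82448423 to 82586849) are 72 bases apart on chromosome 1. Those of Col4a5 (plus strand, 141475385 to 141689234) and Col4a6 (minus strand, 141165403 to 141474076) are 1309 bases apart on chromosome X.

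Levels were first ordered in Con+Con as CPM per kilobase of annotated exon, which allows genes of different length to be compared. Col4a2 was highest, at 22.2 ± 2.67 CPM per kilobase, above 85.6% of 13087 tested genes with a known length. Col4a1 followed at 12.2 ± 1.97 and Lamc1, a chain shared by most laminins, at 10.7 ± 1.72 CPM per kilobase. The 4 mice of Col4a2 (19.1 to 25.2) lay above those of Col4a1 (9.87 to 14.5), whereas Col4a1 and Lamc1 (8.59 to 12.8) overlapped. Hspg2 at 3.25 ± 1.23, Nid1 at 2.20 ± 0.874 and Nid2 at 1.83 ± 1.04 CPM per kilobase formed a middle group whose mice overlapped. The minor chains were lowest. Col4a5 was at 0.841 ± 0.380, Col4a4 at 0.725 ± 0.776, Col4a3 at 0.711 ± 0.520 and Col4a6 at 0.230 ± 0.0753 CPM per kilobase. The mice of these chains overlapped, except that those of Col4a5 (0.498 to 1.20) lay above those of Col4a6 (0.148 to 0.327). Col4a1 and Col4a2 together made up 93.2% ± 3.27 of the summed level per kilobase of the 6 chains in Con+Con and 94.1% ± 4.97 in BACHD+Con. The share was 86.3% ± 4.46 in Con+Foxp2 and 90.3% ± 2.48 in BACHD+Foxp2.

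Under the Foxp2 virus the 2 major chains were lower than under the control virus in both genotypes. The order of the mean levels changed with them. Col4a1 was at 96.5, 108, 85.8 and 73.7 CPM in the Con+Con mice and at 33.8, 32.1, 34.1 and 38.8 CPM in the Con+Foxp2 mice. The Con+Foxp2 values were close together and all lay below the lowest Con+Con mouse. The means were 91.0 ± 14.7 and 34.7 ± 2.86 CPM, a 2.62-fold difference (log2 fold change -1.39, SE 0.22). In BACHD mice Col4a1 was at 83.2, 86.9, 121 and 79.4 CPM under the control virus and at 30.4, 78.9, 55.1 and 38.0 CPM under the Foxp2 virus. These groups did not overlap, but mouse 2 of BACHD+Foxp2, at 78.9 CPM, lay only just under the lowest BACHD+Con mouse at 79.4 CPM. The means were 92.6 ± 19.1 and 50.6 ± 21.5 CPM, a 1.83-fold difference (log2 fold change -0.87, SE 0.22), and without that mouse the log2 fold change was -1.18.

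Col4a2 was at 139, 167, 126 and 154 CPM in Con+Con and at 60.5, 56.6, 59.0 and 63.9 CPM in Con+Foxp2. As for Col4a1, the Con+Foxp2 mice were tightly grouped and lay below every Con+Con mouse. The means were 147 ± 17.6 and 60.0 ± 3.05 CPM, a 2.44-fold difference (log2 fold change -1.29, SE 0.14). In BACHD mice it was at 162, 157, 192 and 165 CPM under the control virus and at 82.3, 69.7, 78.1 and 49.1 CPM under the Foxp2 virus. The highest BACHD+Foxp2 mouse was far below the lowest BACHD+Con mouse. The means were 169 ± 15.8 and 69.8 ± 14.8 CPM, 2.42-fold apart (log2 fold change -1.27, SE 0.14). The authors' deposited table gave log2 fold changes of -1.16 for Col4a1 and -1.14 for Col4a2 in control mice, and -0.61 and -1.07 in BACHD mice. These need not be on the scale of the edgeR values. In control mice every member lay nearer 0 in the deposited table, with Col4a4 at -0.25 there and -1.16 by edgeR.

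**Figure D1:**
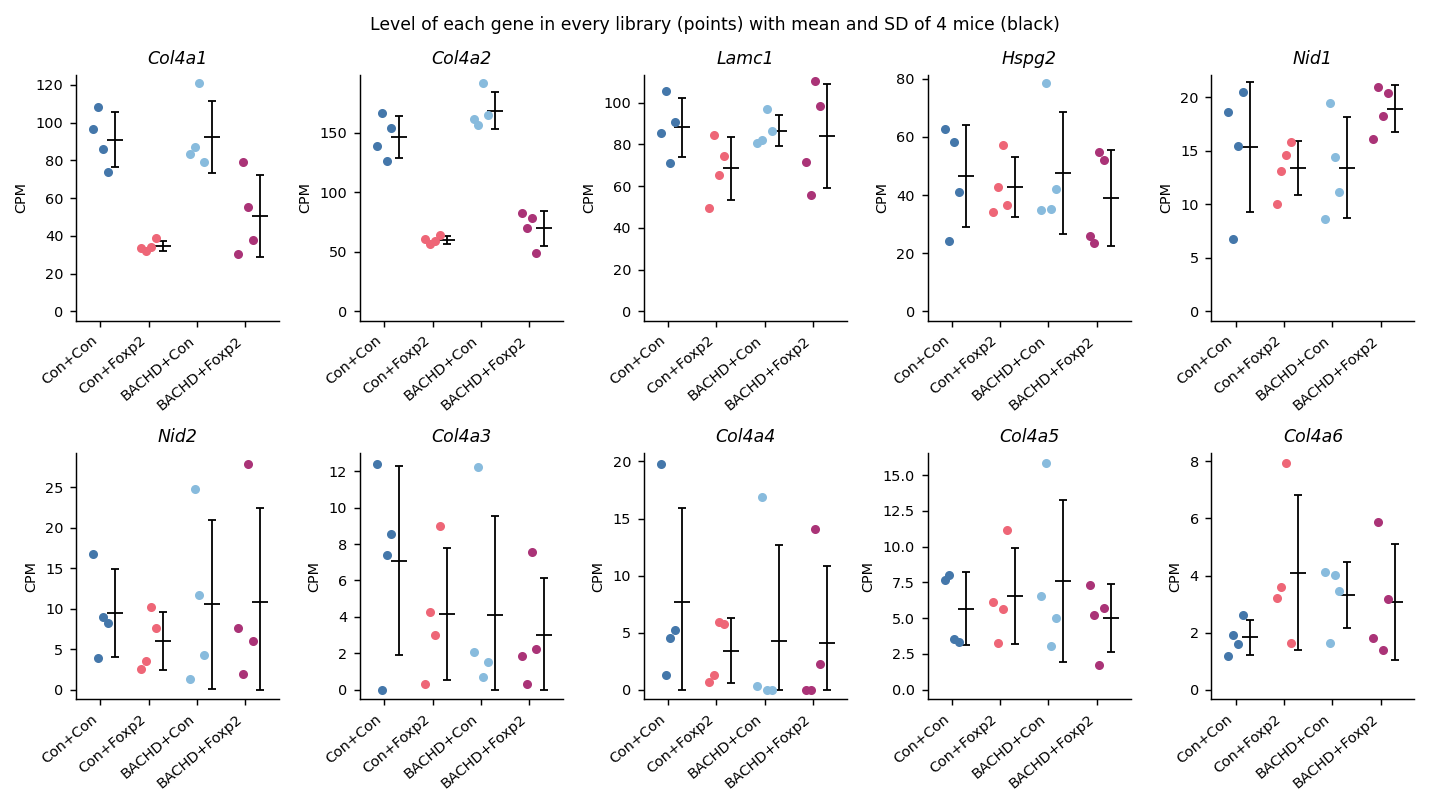
Level of each of the 10 genes in CPM (y axis, one scale per gene) in the 4 groups (x axis). Coloured points are the 4 mice of a group, and black marks are the mean with the SD, drawn no lower than 0. Col4a1 and Col4a2 are low in both Foxp2-virus groups, while the mice of the other genes overlap between the viruses.

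As a description, the quasi-likelihood test of edgeR, adjusted over all genes by Benjamini and Hochberg's method, called 2 of the 10 members lower with the Foxp2 virus in control mice, Col4a1 and Col4a2, and none higher. Over all 13563 genes it called 0.0885% lower and 0.14% higher in that comparison. In BACHD mice it called 1 member lower, Col4a2, and none higher, where 0.155% of all genes were called lower and 0.0885% higher. These comparisons served to choose the set, so nothing is read from the counts. The call of Col4a1 changed with the settings in both genotypes. In BACHD mice it missed the threshold in the fit used here and passed it under 5 of 30 alternatives. Among them were DESeq2 as run here, no filter on low counts, and leaving out BACHD+Foxp2 mouse 2. In the authors' deposited DESeq2 table Col4a1 also missed the threshold in BACHD mice (adjusted p = 0.121). In control mice it passed except without the 7 libraries high in Ttr.

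The ratio of Col4a2 to Col4a1 shows how closely the pair moved together. It was 1.44 to 2.09 in Con+Con, 1.65 to 1.79 in Con+Foxp2 and 1.59 to 2.07 in BACHD+Con. In BACHD+Foxp2 it ran from 0.884 in mouse 2 to 2.71, so this group, and not the others, held mice on both sides of that range. After removal of group means, the log2 levels of Col4a1 and Col4a2 over the 16 libraries gave Pearson r = 0.23 (exact permutation within groups, two-sided p = 0.691) and Spearman rho = 0.36 (p = 0.281). Over the 45 pairs of members the adjusted p of r was 0.961, and r was 0.71 without the 2 libraries farthest from the median of Col4a1. A shared fluctuation of the pair from mouse to mouse was therefore not detectable over all 16 libraries, and the value depends on those 2.

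**Figure D2:**
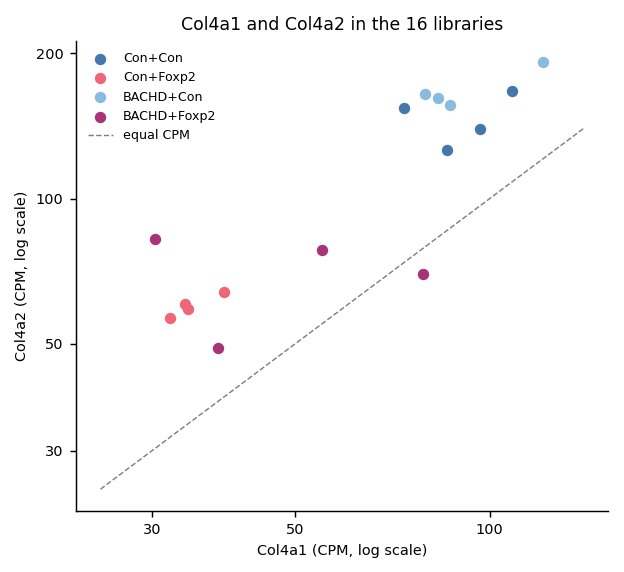
Col4a2 (y axis) against Col4a1 (x axis), both in CPM on log scales, with 1 point per library coloured by group and a dashed line where both are equal. The 8 control-virus libraries lie at the upper right and the Con+Foxp2 libraries form a tight cluster at the lower left. The BACHD+Foxp2 libraries are spread out, with mouse 2, at a ratio of 0.884, the only point below the line.

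Lamc1, the laminin chain that was nearest to Col4a1 in level, was at 85.6, 106, 71.0 and 90.8 CPM in Con+Con and at 49.6, 84.8, 65.3 and 74.5 CPM in Con+Foxp2. The groups overlapped, with means of 88.2 ± 14.2 and 68.5 ± 14.9 CPM (log2 fold change -0.36, SE 0.19). In BACHD mice it was at 86.5 ± 7.42 and 84.1 ± 24.9 CPM (log2 fold change -0.04, SE 0.19), again with overlap. Per kilobase the mean of Lamc1 therefore ranked above that of Col4a1 in both Foxp2-virus groups. It was at 8.29 ± 1.80 against 4.65 ± 0.383 in Con+Foxp2 and 10.2 ± 3.02 against 6.77 ± 2.88 in BACHD+Foxp2. The mice of the 2 genes did not overlap in Con+Foxp2 but did in BACHD+Foxp2. There mouse 2 had the opposite order, with Col4a1 at 10.6 and Lamc1 at 6.73 CPM per kilobase. The summed CPM of Col4a1 and Col4a2 was 2.71 ± 0.208 times that of Lamc1 with the control virus and 1.44 ± 0.353 times with the Foxp2 virus in control mice, and 3.01 ± 0.164 and 1.58 ± 0.778 times in BACHD mice. Among BACHD+Foxp2 mice the highest ratio was 2.67, in mouse 2, just below the lowest BACHD+Con mouse at 2.83.

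Perlecan and the nidogens overlapped between the viruses in both genotypes. Hspg2 was at 46.5 ± 17.7 and 42.7 ± 10.4 CPM in control mice (log2 fold change -0.13, SE 0.31), and at 47.6 ± 20.9 and 39.1 ± 16.6 CPM in the BACHD groups (log2 fold change -0.29, SE 0.31). Nid1 was at 15.3 ± 6.07 and 13.4 ± 2.52 CPM in control mice, and at 13.4 ± 4.70 and 18.9 ± 2.22 CPM in BACHD mice, where the log2 fold change was 0.49 (SE 0.31). The BACHD mice of the viruses overlapped for Nid1, with 2 of the 4 BACHD+Foxp2 mice above all BACHD+Con mice. Nid2, the second nidogen, was at 9.47 ± 5.39 and 6.02 ± 3.58 CPM in control mice and at 10.5 ± 10.5 and 10.9 ± 11.6 CPM in BACHD mice, with an SD as large as the mean in the latter.

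The minor collagen IV chains had few reads, 148 to 306 per gene over all 16 libraries against 3250 for Col4a1 and 5332 for Col4a2. Col4a3 was at 7.09 ± 5.18 and 4.14 ± 3.63 CPM in control mice with the control and the Foxp2 virus, and at 4.12 ± 5.43 and 2.99 ± 3.16 CPM in BACHD mice. Its head-to-head neighbour Col4a4 was at 7.69 ± 8.23, 3.41 ± 2.83, 4.30 ± 8.37 and 4.08 ± 6.76 CPM in the same order of groups, with 0 reads in 4 of the 8 BACHD libraries. Both spread so widely within groups that no difference of the size seen for Col4a1 could be told from the spread. Col4a5 was at 5.65 ± 2.55, 6.55 ± 3.33, 7.60 ± 5.68 and 5.0 ± 2.36 CPM. Col4a6 was at 1.83 ± 0.600 CPM in Con+Con, from 4 to 7 reads a library, and at 4.10 ± 2.71, 3.32 ± 1.15 and 3.07 ± 2.03 CPM in the other groups. The highest log2 fold change of any member in control mice was that of Col4a6, 1.15 (SE 0.65), where 3 of the 4 Con+Foxp2 mice lay above all Con+Con mice and mouse 4 did not.

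**Figure D3:**
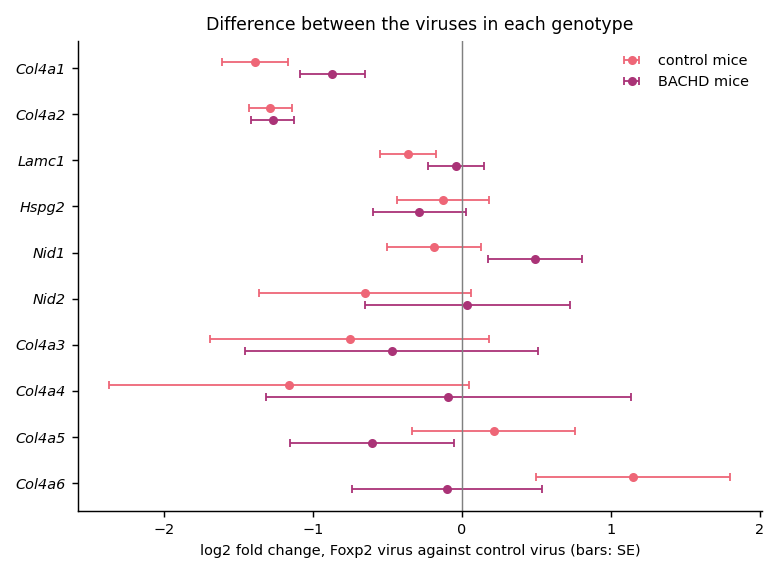
Log2 fold change between the Foxp2 virus and the control virus (x axis, negative values are lower with the Foxp2 virus) for each gene (y axis), in control and BACHD mice. Points are estimates and bars their SE. Col4a2 is near -1.3 in both genotypes and Col4a1 is at -1.39 and -0.87. The bars of the other genes cross 0, except those of Lamc1 and Col4a6 in control mice and of Col4a5 and Nid1 in BACHD mice.

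Over the 10 members, 8 had a lower estimate with the Foxp2 virus in control mice and 8 in BACHD mice, with median log2 fold changes of -0.51 and -0.19. Over all genes tested the medians were 0.00 in both comparisons, and 50.6% and 49.8% of genes had a lower estimate. Without Col4a1 and Col4a2, the remaining 8 members had medians of -0.28 and -0.10 with 6 lower in each. The lowest estimate among these 8 was that of Col4a4 in control mice, -1.16 with an SE of 1.21.

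The genotype comparisons were not the contrast that chose the members, but they reuse the same 16 libraries, among them the Foxp2-virus mice whose low Col4a1 and Col4a2 led to the choice. Their p-values are therefore not independent of it and are given as a description. With the control virus, BACHD and control mice had Col4a1 at 92.6 and 91.0 CPM (log2 fold change 0.02, 95% interval -0.44 to 0.49) and Col4a2 at 169 and 147 CPM (log2 fold change 0.20, interval -0.10 to 0.51). None of the 10 members passed edgeR's test (adjusted p = 1 for each), where 0.0147% of all genes did, and 0 had an unadjusted p under 0.05, against 3.44% of all genes. DESeq2 and limma voom called 0 as well. With the Foxp2 virus, where BACHD mice had the lower Foxp2 level, Col4a1 was at 50.6 CPM in BACHD and 34.7 CPM in control mice (log2 fold change 0.54, interval 0.05 to 1.03). Its edgeR p was 0.0243 before and 0.998 after adjustment, and it was the 1 member of 10 under 0.05 before adjustment, where 4.18% of all genes were. Of the 4 BACHD+Foxp2 mice, 2 lay above all Con+Foxp2 mice for Col4a1 and 3 for Col4a2 (log2 fold change 0.22, interval -0.10 to 0.53). Nid1 was at 16.1, 20.9, 18.2 and 20.4 CPM in BACHD+Foxp2 and 9.98, 13.1, 14.6 and 15.8 CPM in Con+Foxp2, without overlap. Its log2 fold change of 0.50 (interval -0.18 to 1.18) did not pass (edgeR adjusted p = 0.998). The share of all genes without overlap was not counted here, so nothing is read from this separation of 1 member among 10. With the Foxp2 virus 0 of the 10 members and 0.059% of all genes were called, and DESeq2 and limma voom also called 0 members. Averaged over both viruses, Col4a1 had a log2 fold change of 0.28 (interval -0.05 to 0.62) and Col4a2 of 0.21 (interval -0.01 to 0.43) in BACHD mice. None of the 10 passed, with 0 at an unadjusted p under 0.05, by edgeR, DESeq2 or limma voom, where edgeR called 0.0369% of all genes and found 4.05% at an unadjusted p under 0.05.

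Whether the difference between the viruses itself differed between the genotypes was tested as an interaction. It uses the same libraries as the comparisons that chose the set. With the Foxp2 virus, Foxp2 was at 4015 CPM in control and 1595 CPM in BACHD mice. Genotype and Foxp2 level can therefore not be told apart in this interaction. For Col4a1 the log2 fold change in BACHD mice minus that in control mice was 0.52 (SE 0.31, interval -0.16 to 1.19), with an edgeR adjusted p = 1 and an unadjusted p = 0.108. For Col4a2 it was 0.01 (SE 0.20, interval -0.42 to 0.45), so the estimate for this chain was nearly the same in both genotypes within an interval of that width. None of the 10 members was called and 0 had an unadjusted p under 0.05, and over all genes edgeR called 0% and found 516 genes at an unadjusted p under 0.05. DESeq2 and limma voom called 0 members. The smaller difference of Col4a1 in BACHD mice was therefore not shown to differ from that in control mice.

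Markers of the cells that make vascular basement membrane were examined beside the major chains, since in bulk tissue fewer cells of a type and less RNA per cell cannot be told apart. All 20 endothelial markers were tested, 0 were called in either virus comparison by edgeR, DESeq2 or limma voom, with 2 at an unadjusted edgeR p under 0.05 in each, and none was at 0 in any group. Their summed level was 421 to 532 CPM in Con+Con and 400 to 511 CPM in Con+Foxp2, and 408 to 487 CPM in BACHD+Con and 429 to 567 CPM in BACHD+Foxp2. The groups overlapped in both genotypes. Flt1, a receptor for vascular endothelial growth factor, was at 110 ± 18.1, 100.3 ± 14.5, 103 ± 12.9 and 117 ± 11.8 CPM in the order of the groups above. The mean log2 CPM of the list differed by -0.17 in control mice (exact permutation, two-sided p = 0.143, adjusted over 9 marker lists 0.36) and by 0.09 in BACHD mice (exact p = 0.429, adjusted 0.771). With 4 against 4 mice the smallest possible p is 0.0286.

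Set against this sum, Col4a1 and Col4a2 together were 0.494 ± 0.0513 of the endothelial markers in Con+Con and 0.215 ± 0.0355 in Con+Foxp2. In BACHD mice the ratio was 0.592 ± 0.0963 and 0.248 ± 0.0759. The lowest control-virus library, at 0.428, lay above the highest Foxp2-virus library, at 0.346. With the endothelial marker level of each library as a covariate, the log2 fold changes in control mice were -1.61 for Col4a1 and -1.25 for Col4a2, and in BACHD mice -0.81 and -1.30.

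**Figure D4:**
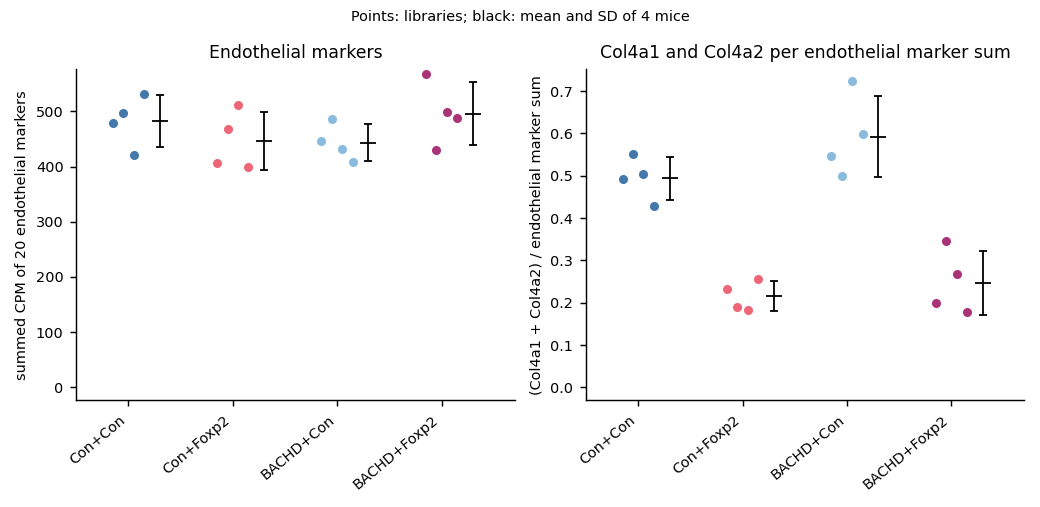
Summed CPM of the 20 endothelial markers (left) and the summed CPM of Col4a1 and Col4a2 divided by it (right) in the 4 groups. Coloured points are mice and black marks the mean with SD. The marker sum overlaps between all groups, and the ratio lies at 0.428 or above in the control-virus libraries and at 0.346 or below in the Foxp2-virus libraries.

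Pericyte and smooth muscle markers, of which 13 of 15 were tested and none was at 0 in a whole group, summed to 263 to 354 CPM in Con+Con and 243 to 273 CPM in Con+Foxp2. In BACHD mice they summed to 249 to 353 and 246 to 331 CPM. The pericyte receptor Pdgfrb was at 35.4 ± 5.02 and 34.1 ± 5.14 CPM in control mice and at 35.4 ± 3.20 and 35.9 ± 7.11 CPM in BACHD mice, and Vtn and Cald1 overlapped between the viruses. The list mean differed by -0.20 log2 in control mice (exact p = 0.2, adjusted 0.36) and by -0.09 in BACHD mice (exact p = 0.514, adjusted 0.771). Vascular and meningeal fibroblast markers, 11 of 12 tested, differed by -0.09 (exact p = 0.829) and 0.10 (exact p = 0.8). With the pericyte markers as a covariate the log2 fold changes of Col4a1 and Col4a2 were -1.57 and -1.34 in control mice and -0.99 and -1.30 in BACHD mice. Neither the pericyte nor the fibroblast list held a gene called by edgeR, DESeq2 or limma voom in a virus comparison, with 0 or 1 at an unadjusted edgeR p under 0.05 in each.

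Markers of other cell types were also compared between the viruses, and none of their list means passed after adjustment over 9 lists. All 15 projection neuron markers had lower estimates with the Foxp2 virus in both genotypes, with median log2 fold changes of -0.47 in control and -0.29 in BACHD mice. In control mice 12 of the 15 had an unadjusted edgeR p under 0.05, where 7.04% of all genes had, and 0 were called. The unadjusted count was 10 with DESeq2, which called Scn4b, a sodium channel subunit gene. It was 6 with limma voom, which called 0. In BACHD mice it was 3 with each tool, where edgeR had 7.73% of all genes. The summed level of the list ran from 4799 to 9663 CPM in Con+Con and from 4623 to 5873 CPM in Con+Foxp2, and from 5668 to 8963 and 4972 to 7124 CPM in BACHD mice, with overlap in both. All 10 oligodendrocyte markers were lower in control mice (median -0.38), with 2 at an unadjusted edgeR p under 0.05 and 0 called by any of the 3 tools, while in BACHD mice 2 were lower and 8 higher (median 0.08). Cortical neuron markers were higher in 10 of 12 and 12 of 12 estimates (medians 0.44 and 0.74). Choroid plexus and ependymal markers were lower in 10 and 9 of 12 (medians -0.85 and -0.65). Their mean log2 CPM differed by -0.61 in control and -0.05 in BACHD mice, and their summed CPM by -1.15 and 0.11 on the log2 scale. None of the cortical or choroid plexus markers was called by edgeR or had an unadjusted edgeR p under 0.05, and DESeq2 and limma voom called 0. For the cortical markers the unadjusted count depended on the tool. Limma voom had 3 of 12 under 0.05 in control mice and 6 of 12 in BACHD mice, and DESeq2 had 1 and 0. The mean log2 CPM of these 4 lists overlapped between the viruses, with exact p of 0.171 to 1 over both genotypes.

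Astrocyte markers had 8 higher and 4 lower estimates of 12 in each genotype. Their mean log2 CPM was higher by 0.22 in control mice, without overlap (exact p = 0.0286, adjusted 0.129), but their summed CPM, in which the glutamate transporter gene Slc1a2 is the largest part, differed by 0.07 on the log2 scale and overlapped (exact p = 0.4, adjusted 0.4). In BACHD mice the differences were 0.21 for the mean and 0.12 for the sum (exact p = 0.0857 and adjusted 0.386 for each). Microglial markers had 8 of 11 higher estimates in control and 11 of 11 in BACHD mice. Their mean differed by 0.33 (exact p = 0.0286, adjusted 0.129) and 0.35 (exact p = 0.0571, adjusted 0.386), and their sum by 0.26 (exact p = 0.0571, adjusted 0.4) and 0.41 (exact p = 0.0286, adjusted 0.257). At an unadjusted edgeR p under 0.05 were 4 of 12 astrocyte markers in each genotype. For the 11 microglial markers the count was 2 in control and 3 in BACHD mice. Over all genes the shares were 7.04% in control and 7.73% in BACHD mice. In control mice edgeR called 0 genes of either list, and DESeq2 called the astrocyte genes Gfap and Slc1a3. In BACHD mice edgeR called 1 of 12 astrocyte and 1 of 11 microglial markers, both higher, where 0.0885% of all genes were called higher. These were Gfap, the astrocyte filament gene, which rose from 207 ± 71.9 to 501 ± 123 CPM (edgeR adjusted p = 0.00326), and the microglial protease gene Ctss, which rose from 47.8 ± 4.61 to 81.7 ± 14.5 CPM (edgeR adjusted p = 0.0465). Gfap was called by DESeq2 and limma voom too, whereas limma voom did not call Ctss (adjusted p = 0.0805) and DESeq2 also called the water channel gene Aqp4. The part of these cells in the level of the members was not tested.

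The members were also compared between the 7 libraries high in Ttr and the other 9. This split was made after the values were seen and the difference between the sets was not tested, so what follows is a description. Col4a4 was the member whose sets did not overlap, at 4.50 to 19.8 CPM (median 5.97) in the 7 and at 0 to 2.23 CPM (median 0.344) in the 9. The other 9 members overlapped. The share of all genes without overlap between these sets was not counted, so nothing is read from the separation of Col4a4. Col4a3 was at 2.98 to 12.4 CPM (median 8.56) in the 7 and 0 to 4.25 CPM (median 1.54) in the 9. Nid2 was at 7.64 to 27.9 CPM (median 10.3) against 1.37 to 11.8 CPM (median 3.86), and Hspg2 at 36.6 to 78.6 CPM (median 57.3) against 23.6 to 52.0 CPM (median 34.7). These basement membrane genes thus had higher medians in the libraries high in Ttr. Nid1 had medians of 18.2 and 13.1 CPM, and Col4a6 went the other way, with medians of 1.64 and 3.47 CPM. Medians were 5.64 and 5.74 CPM for Col4a5 and 81.9 and 84.8 CPM for Lamc1. They were 73.7 and 78.9 CPM for Col4a1 and 126 and 82.3 CPM for Col4a2, while the mix of groups differs between the sets.

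**Figure D5:**
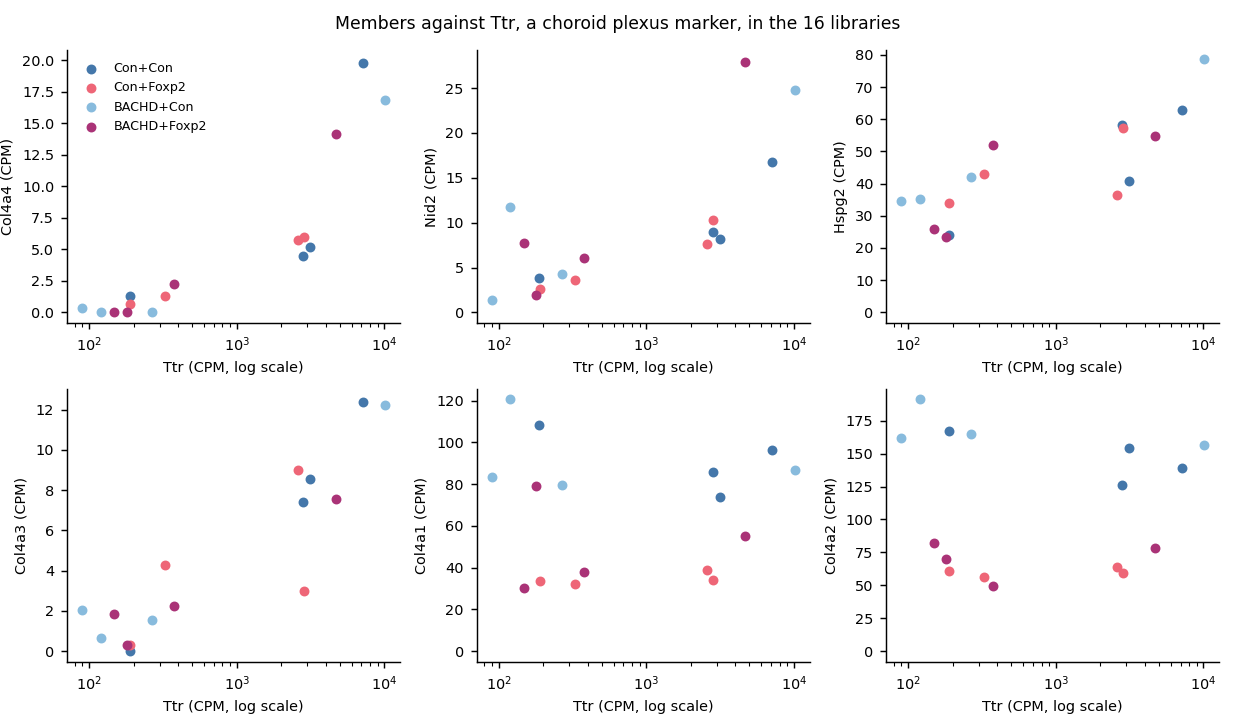
Level in CPM (y axis) of Col4a4, Nid2, Hspg2, Col4a3, Col4a1 and Col4a2 against Ttr in CPM (x axis, log scale), with 1 point per library coloured by group. The 7 libraries at the right, at 2588 CPM of Ttr or above, hold all Col4a4 values above 2.23 CPM, while Col4a1 and Col4a2 are split by virus at both ends of the Ttr axis, apart from BACHD+Foxp2 mouse 2 at 78.9 CPM of Col4a1.

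With the choroid plexus markers as a covariate the log2 fold changes of Col4a1 and Col4a2 were -1.40 and -1.29 in control mice and -0.87 and -1.27 in BACHD mice, within 0.01 of those without it. Without the 7 libraries high in Ttr, which left 1 library of Con+Con, 2 of Con+Foxp2 and 3 in each BACHD group, they were -1.72 and -1.51 in control mice and -0.95 and -1.38 in BACHD mice. Here the lone Con+Con library was assumed to vary like the other groups, and Col4a1 in control mice was no longer called (edgeR adjusted p = 0.235).

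Other genes of the pathway were examined in 6 lists, of which 125 genes were tested. Of these edgeR called 1 higher and 0 lower with the Foxp2 virus in control mice and 0 in BACHD mice. At an unadjusted p under 0.05 were 14 (11.2%) and 11 (8.8%), against 7.04% and 7.73% of all genes. DESeq2 called 2 in control mice, Col23a1 and Col6a1, and 1 in BACHD mice, Col23a1, and limma voom called Col23a1 in control mice and 0 in BACHD mice. The 26 further structural genes of the basement membrane, among them the other laminin chains, agrin and the small matrix protein Sparc, had medians of -0.14 in control and 0.17 in BACHD mice, with 15 and 10 lower and 0 called. The 24 genes for folding, secretion and crosslinking of collagen had medians of -0.09 and 0.02 and the 18 receptors medians of -0.04 and 0.04, with 0 called. The 14 matrix proteases and inhibitors had medians of 0.15 and 0.20, with 9 and 11 higher, and the 17 TGF-beta pathway genes medians of -0.12 and 0.07, with 0 called in either list.

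Some genes that work directly with the members were picked by role, after their values were seen. Lamb1, a beta chain that pairs with gamma 1 in laminins, was at 60.8 ± 13.5 and 43.4 ± 4.20 CPM in control mice and 64.5 ± 22.5 and 53.0 ± 6.67 in BACHD mice (edgeR adjusted p = 0.623 and 0.818). Serpinh1, the collagen chaperone HSP47, was at 11.3 ± 6.98 and 14.5 ± 3.27 CPM in control mice and 11.4 ± 2.83 and 11.6 ± 5.04 in BACHD mice (adjusted p = 0.927 and 0.994). Itgb1, the beta 1 integrin chain of collagen and laminin receptors, was at 65.7 ± 8.93 and 63.6 ± 17.0 CPM and at 66.7 ± 12.1 and 64.9 ± 22.6 CPM (adjusted p = 0.989 and 0.987). None of these passed the test.

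Among 26 other collagens tested, Col23a1 was the 1 called by edgeR, and it went the other way. Col23a1, a membrane-spanning collagen that is not part of basement membranes, rose from 10.2 ± 6.76 to 126 ± 24.0 CPM in control mice given the Foxp2 virus (log2 fold change 3.60, SE 0.31, edgeR adjusted p = 4.17e-07). In BACHD mice it was at 8.42 ± 2.06 and 21.5 ± 2.81 CPM (log2 fold change 1.35, SE 0.33), which DESeq2 called (adjusted p = 0.00787) and edgeR and limma voom did not (adjusted p = 0.118 and 0.314). With the Foxp2 virus the BACHD level was below the control level by a log2 fold change of -2.55 (SE 0.29, edgeR adjusted p = 7.29e-05). Its interaction, a log2 fold change of -2.25, passed with DESeq2 (adjusted p = 0.00134) and not with edgeR (0.362) or limma voom (0.538). Foxp2 itself was also lower in BACHD mice given this virus, so genotype and Foxp2 level cannot be told apart here. Col6a1, a chain of the microfibrillar collagen VI, was at 161 ± 26.0 and 102 ± 19.4 CPM in control mice and at 191 ± 27.2 and 124 ± 27.1 CPM in BACHD mice. Its log2 fold changes were -0.66 and -0.62, with an adjusted p of 0.0289 by DESeq2 and 0.119 by edgeR in control mice, and 0.0633 and 0.175 in BACHD mice. The median of the other collagens was 0.00 in control and 0.04 in BACHD mice.

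Genes most like Col4a1 and Col4a2 from mouse to mouse were ranked among 10370 genes, by Pearson correlation over the 16 libraries between their deviations from the group means and the mean deviation of the pair. The first 5 were Snapc4 (r = 0.84), Ubl5 (0.82), Qrsl1 (0.81), Ikbkg (0.81) and Kri1 (0.80). With each chain alone r was lower. It ran from 0.59 (Kri1) to 0.78 (Ubl5) with Col4a1 and from 0.46 (Ubl5) to 0.73 (Kri1) with Col4a2. These values are the extremes of a long ranking and carry no test, and the libraries share depth and composition.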

How the data were processed

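The members and gene lists were chosen with earlier results of these data known. RNA was extracted with a lipid tissue kit and turned into libraries with SMARTer reagents for the HiSeq 2000, per the labels' protocols. STAR 2.4.0, HTSeq and DESeq2 with mm10 are named in the submitters' processing notes. The authors deposited counts of reads per gene symbol. Of all counted reads 22.5% to 24.7% fell on genes, and the 5 summary lines were left out. The annotation and strand setting used were not stated in these sources. Reads in the 22 bases shared by Col4a1 and Col4a2, or under antisense genes, may be left out or misplaced. The authors also deposited 3 comparison tables with a log2 fold change, its error and an adjusted p-value, used only where named.

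Counts of 16 libraries were fitted in one model with edgeR 4.0.16 (R 4.3.3) with TMM, its filter on low counts, 12 residual degrees of freedom, and calls at an adjusted p under 0.05. Intervals are 95%. DESeq2 1.42.0 and voom in limma 3.58.1 were alternatives, as were 3 other scalings, no filter, 8 libraries alone, a replicate block, covariates from marker lists and leaving out libraries. Replicates differed beyond sampling noise (chi-square per degree of freedom at least 4.41 over 24 pairs). Gene coordinates and lengths are from GENCODE M21 and sequences from RefSeq. By the rule for named genes these are the 10 members, called genes of each pathway list, the 3 highest genes of a marker list, and the 5 genes most like Col4a1 and Col4a2. Lamb1, Serpinh1, Itgb1, Gfap, Aqp4, Scn4b and Col6a1 fall outside it and were chosen after their values were seen. Comparison of the protein chains was not run.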

Additional observations from a re-analysis of the deposited data

Results flagged for a closer look

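Of 56 groups of 4 values checked (10 genes and 4 ratios in 4 groups), 6 held a mouse set apart from the others. Its gap to the nearest of them exceeded 0.829 of the group's range. This cut flags about 1 in 20 groups of normal values. Levels from few reads are skewed and the ratios all use Col4a1 and Col4a2, so that rate need not hold here. In BACHD+Con, mouse 2 stood apart for Col4a3 at 12.2 CPM (others 0.672 to 2.06), for Col4a4 at 16.8 CPM (others 0 to 0.344) and for Hspg2 at 78.6 CPM (others 34.7 to 42.0). In BACHD+Foxp2, mouse 3 stood apart for Col4a4 at 14.1 CPM (others 0 to 2.23). Each of these mice was the only one of its group among the 7 libraries high in Ttr. Con+Con mouse 4 had a Col4a2 to Col4a1 ratio of 2.09 (others 1.44 to 1.54). Con+Con mouse 2 had a ratio of Col4a1 and Col4a2 to Nid1 and Hspg2 of 8.91 (others 2.88 to 3.71), with the lowest Nid1 and Hspg2 of its group, 6.76 and 24.1 CPM.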

How the results depend on the processing

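The virus comparisons chose the set, so the calls of Col4a1 and Col4a2 below were fixed in part by that choice and are no independent support. Over 30 alternatives Col4a1 and Col4a2 stayed lower with the Foxp2 virus in both genotypes. The log2 fold change ran from -1.72 to -1.30 for Col4a1 and from -1.51 to -1.22 for Col4a2 in control mice, and from -1.18 to -0.68 and from -1.38 to -1.13 in BACHD mice. With 1 of 16 libraries left out at a time, 2 members were called in control mice in every fit, and 1 or 2 in BACHD mice, 2 without BACHD+Foxp2 mouse 2 (Col4a1 adjusted p = 0.0104 by edgeR). Col4a1 was also called in BACHD mice, making 2 members, with no filter on low counts (edgeR adjusted p = 0.021). The same held with DESeq2 as run here (0.0325), with pericyte markers (edgeR, 0.0335) and with oligodendrocyte markers as a covariate (edgeR, 0.0357). Without the 7 libraries high in Ttr, 1 member was called in control mice, Col4a2, at a log2 fold change of -1.51. The Ttr split and the choroid plexus and oligodendrocyte covariates were chosen after seeing the data. The causes were not tested, but fewer libraries enter the fits that leave some out. In genotype comparisons and the interaction 0 members were called under any alternative.

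Same-numbered mice correlated at -0.18 to 0.15 and share only a number. With a replicate block the log2 fold changes were -1.37 and -1.29 for Col4a1 and Col4a2 in control mice and -0.91 and -1.28 in BACHD mice, and the count of members called was 2 and 1, as without it.

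Over all genes, the counts called with the virus in control mice were 31, 75 with no filter, 87 with DESeq2, 19 with endothelial markers as a covariate and 6 without the libraries high in Ttr, and 10 to 46 with 1 library left out. In BACHD mice they were 33, 53 with no filter, 66 with DESeq2, 19 with 8 libraries alone, 6 without the 3 libraries lowest in cortical markers, 12 without those high in Ttr, and 9 to 32 with 1 left out. Under the control virus the genotype count was 2 and ran from 1 to 3, under the Foxp2 virus 8 (4 to 15, DESeq2 15), averaged 5 (3 to 9), and for the interaction 0 (0 to 4, DESeq2 4). Low counts limit Col4a3, Col4a4, Col4a5 and Col4a6, at 148 to 306 reads each in all.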
